A study of Homo sapiens with 4 samples.

Results

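Lamp1, Ctsf and Atp6v1h are 3 mouse genes whose proteins work in the lysosome, and each was found by its symbol in all 4 deposited expression tables, so that 3 of 23698 annotated loci are described here. They were picked by name with results of these libraries already known, so what follows describes those levels and tests nothing. The tables come from subcutaneous tumours that the human breast cancer line MDA-MB-231, of the triple-negative kind, formed in Balb/c nude mice, which lack a thymus and so most T cells. The cells were either caspase-3 efficient or had been cultured with Z-DEVD-FMK, an inhibitor of the apoptosis protease caspase-3, and tumours of both kinds were sampled without treatment or after docetaxel, which stabilises microtubules, at 15 mg/kg given when they measured 12 mm². Each of the 4 combinations was 1 library of tumour RNA depleted of ribosomal RNA, with no replicate, so no p-value is given and no spread between animals is known. Caspase-3 state refers to the grafted cells in culture, and caspase-3 activity in the tumours was not measured here. Neither the ages of the mice nor the time from docetaxel to sampling was stated in the labels.

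The lysosome is an acidic compartment in which proteins, lipids and sugars taken up or recycled by the cell are broken down. Lamp1 encodes a heavily glycosylated protein that lines the lysosomal membrane. Ctsf encodes cathepsin F, a cysteine protease of the papain family that cuts proteins inside the lysosome. Atp6v1h encodes subunit H of the vacuolar ATPase (v-ATPase), the pump that acidifies the lysosome, and sits in the sector of the pump that binds ATP. All 3 genes are active in many cell types, and macrophages and osteoclasts are known for a rich lysosomal system.

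Levels are given in FPKM, fragments scaled by transcript length and by the mapped fragments of the library, each with the lower and upper confidence bounds that the authors deposited. The reads were placed on the mouse build mm9 although the labels give the organism as human, so the values describe mouse host tissue together with any human reads that matched mouse sequence, and the share of each is not known. In bulk tissue of this kind, fewer cells of a type and less RNA per cell cannot be told apart. Between 1842 and 2776 loci were above 0 per library. Values were crowded near the starts of 14 reference sequences, which were chromosomes and the separate sequence 13_random. There 489 of 828 loci (59.1%) had a value above 0 in 3 or 4 libraries, compared with 4.84% of the 22870 loci elsewhere. The stretches were drawn from these same values, so part of that contrast is built in. Because values were so unevenly placed, a listed 0 is not read as a level.

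All 3 genes lie in such stretches. Lamp1 occupies positions 13159135 to 13175338 of chromosome 8 and is locus 79 of 1102 there, and 51.9% of the loci up to and including it had values above 0 in 3 or 4 libraries, compared with 5.28% of those after it. Ctsf lies on chromosome 19 from 4855129 to 4860912 as locus 60 of 759, with 68.3% of loci above 0 up to it and 15.2% after it. Atp6v1h spans 5073254 to 5152630 on chromosome 1 and is locus 8 of 1292. Its stretch is short, with 8 of 14 loci above 0 in 3 or 4 libraries, and after Atp6v1h the share on the chromosome was 3.43%. None of the 3 spans overlapped another annotated locus, and each was listed as a single row with the status OK in every library. No exon annotation of this build was used, so positions are those of whole loci.

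Lamp1 was by far the most abundant of the 3. Its level was 129 FPKM (deposited bounds 101 to 154) in the untreated efficient library and 186 FPKM (148 to 205) in the docetaxel efficient library. In the inhibited tumours it was 98.1 FPKM (74.4 to 121) untreated and 191 FPKM (150 to 225) with docetaxel. Both docetaxel libraries were thus above both untreated libraries, and they lay within 5 FPKM of each other. The bounds of the untreated inhibited library lay below those of both docetaxel libraries, whereas those of the untreated efficient library overlapped all others. Lamp1 ranked between 16 and 30 among all loci in each library, counted from the highest. If the deposited bounds are taken as 2 standard deviations of a Poisson count, these levels rest on roughly 95, 172, 71 and 102 fragments in the order given. In the docetaxel efficient library the level lies nearer its upper bound (205) than its lower one (148). The 172 may therefore be too high, and intervals built on the bounds of that library may be too narrow.

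Ctsf was the least abundant and varied most. It stood at 6.74 FPKM (2.02 to 11.1) in the untreated efficient library and at 17.2 FPKM (9.79 to 24.1) with docetaxel. In inhibited tumours its levels were 3.78 FPKM (0 to 6.79) untreated and 20.2 FPKM (9.08 to 30.3) with docetaxel. The order of libraries was the same as for Lamp1, with the docetaxel inhibited library highest and the untreated inhibited library lowest. The bounds of the untreated inhibited library again lay below those of both docetaxel libraries, and neither the 2 docetaxel libraries nor the 2 untreated libraries were apart from each other. Counts behind these levels are small, at roughly 9, 23, 6 and 15 fragments by the same reckoning.

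Atp6v1h had another order, with a single library standing high. Its level was 23.6 FPKM (14.1 to 32.3) in the untreated efficient library and 43.1 FPKM (29.4 to 56.5) in the docetaxel efficient library. The inhibited libraries held 21.4 FPKM (11.3 to 30.6) untreated and 25.3 FPKM (13.6 to 37.8) with docetaxel. The bounds of all 4 libraries overlapped for this gene, which does not show that the levels were the same. The levels rest on roughly 27, 40, 20 and 17 fragments.

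**Figure D1:**
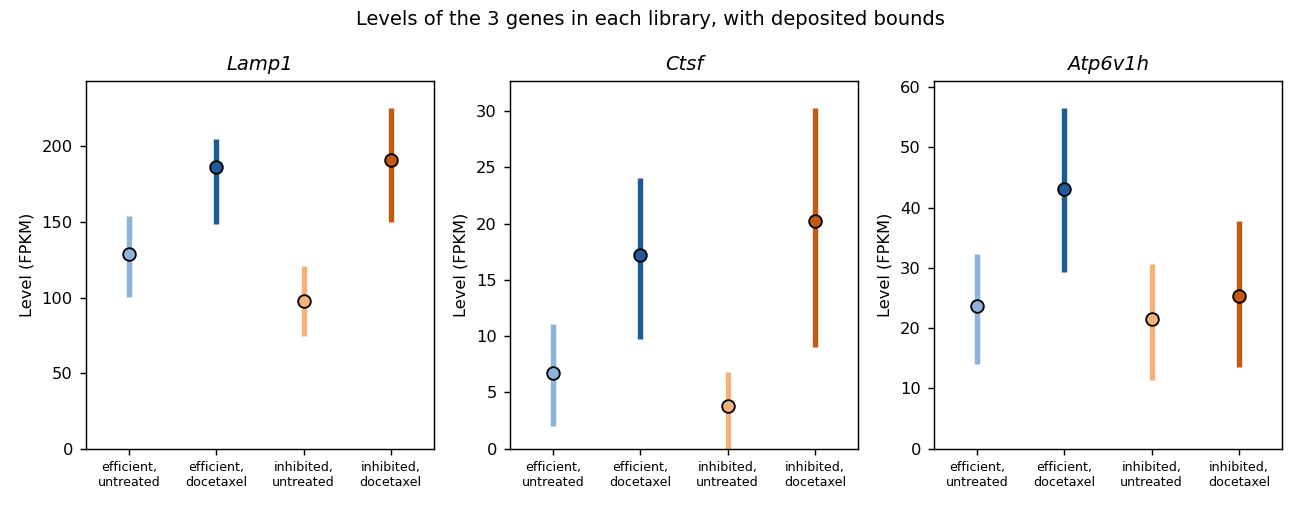
Level in FPKM (vertical axis, from 0, with its own scale for each gene) of Lamp1, Ctsf and Atp6v1h in the 4 libraries; points are the deposited levels and bars the deposited bounds, 1 library per group. As deposited, Lamp1 and Ctsf are higher in both docetaxel libraries than in both untreated ones, which quantile normalization turns for Lamp1 in efficient tumours, while Atp6v1h is highest in the docetaxel efficient library at 43.1 FPKM.

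The first comparison asked how the docetaxel and the untreated library differed when the grafted cells were caspase-3 efficient. As deposited all 3 genes had higher values with docetaxel, and none met the rule used for a difference: at least 2-fold on the scale of log2(FPKM + 1), bounds that do not overlap, and 5 FPKM or more in at least 1 of the 2 libraries. That rule was met by 9% of the 667 loci compared. The ratio of docetaxel to untreated FPKM was 1.44 for Lamp1 (95% interval 1.12 to 1.85, computed from the deposited bounds and covering counting error only). For Ctsf the ratio was 2.56 (1.18 to 5.55), and for Atp6v1h 1.83 (1.12 to 2.97). These 3 intervals lie above 1 although the bounds overlapped, but they cover neither scaling nor the spread between animals. On the log2(FPKM + 1) scale the differences were 0.52, 1.24 and 0.84, but the median over all compared loci was itself 0.34. Relative to that median the genes stood 0.18, 0.89 and 0.50 higher. The value of Lamp1 was 0.26 with each library scaled to a common median and -0.14 with quantile normalization, so its direction depended on scaling. Among the 667 loci, 92 had a larger difference than Ctsf, 176 a larger one than Atp6v1h and 263 a larger one than Lamp1.

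The same comparison in caspase-3 inhibited tumours put Ctsf past the rule and left Lamp1 just short of it. Ctsf was 5.34-fold higher with docetaxel (95% interval 2.10 to 13.6), a log2 difference of 2.15, and 27 of 630 loci had a larger one. The rule was met in either direction by 5.56% of the loci compared, and by higher values in 3.81%. Because Ctsf was among the genes picked for this difference, the count of 1 gene in 3 carries no weight beyond the value. Lamp1 had bounds that did not overlap, but its ratio of 1.94 (1.44 to 2.63) and log2 difference of 0.95 fell under the 2-fold limit. Atp6v1h had a ratio of 1.18 (0.62 to 2.24) and a log2 difference of 0.23, below the median of 0.37 over all compared loci. Against that median Ctsf stood 1.78 higher and Lamp1 0.59 higher. Where each library was scaled to the median of loci that reached 5 FPKM in all 4 libraries, the value of Atp6v1h turned to -0.17.

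The share of higher loci in both docetaxel comparisons depended on scaling. As deposited, 54 loci were higher and 6 lower in efficient tumours, and 24 and 11 in inhibited tumours. Median scaling gave 38 and 14 in efficient tumours, and 12 and 19 in inhibited tumours. Ctsf was among the higher loci of the inhibited comparison under both scalings, with log2 differences of 2.15 and 1.79.

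Inhibition of caspase-3 was compared next, first in untreated tumours. None of the 3 genes met the rule, which 5.86% of 597 loci did. The ratio of inhibited to efficient FPKM was 0.76 for Lamp1 (95% interval 0.56 to 1.03), 0.56 for Ctsf (0.20 to 1.56) and 0.91 for Atp6v1h (0.51 to 1.62). Each interval includes 1, and the interval of Ctsf is so wide that little can be said of that gene at this depth. As deposited the 3 values lay below 1, while quantile normalization turned Atp6v1h to a log2 difference of 0.05. The median log2 difference over all compared loci was -0.09.

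Under docetaxel, the deposited values of Lamp1 and Ctsf differed little between the kinds of tumour. That of Atp6v1h was lower in the inhibited library. The ratio of inhibited to efficient FPKM was 1.02 for Lamp1 (95% interval 0.80 to 1.31), 1.17 for Ctsf (0.61 to 2.26) and 0.59 for Atp6v1h (0.33 to 1.03). None met the rule, against 13.3% of 701 loci. For counting error alone, the interval for Lamp1 allows differences of up to about 1.31-fold, which is the narrowest limit among these genes. That limit leaves out scaling: the log2 difference of Lamp1 was 0.03 as deposited, -0.02 with median scaling and 0.34 with quantile normalization. The interval of Ctsf is too wide to show that its levels were the same. Erythroid and adipocyte loci set these 2 libraries apart: summed alpha globin values were 1766 FPKM in the efficient and 427 in the inhibited docetaxel library, and the summed adipocyte values 429 and 12.4. In the untreated libraries the globin sums were 207 FPKM (efficient) and 935 FPKM (inhibited), and the adipocyte sums 12.6 and 11.6 FPKM. Of 6 adipocyte loci 3 were above 0, and only 1 of them in all 4 libraries. Atp6v1h had its highest level in the library where both sums were highest. As deposited its lowest level fell in the untreated inhibited library, whose globin sum exceeded that of the docetaxel inhibited one. The part of erythroid and adipocyte loci in the value of Atp6v1h was not tested.

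**Figure D2:**
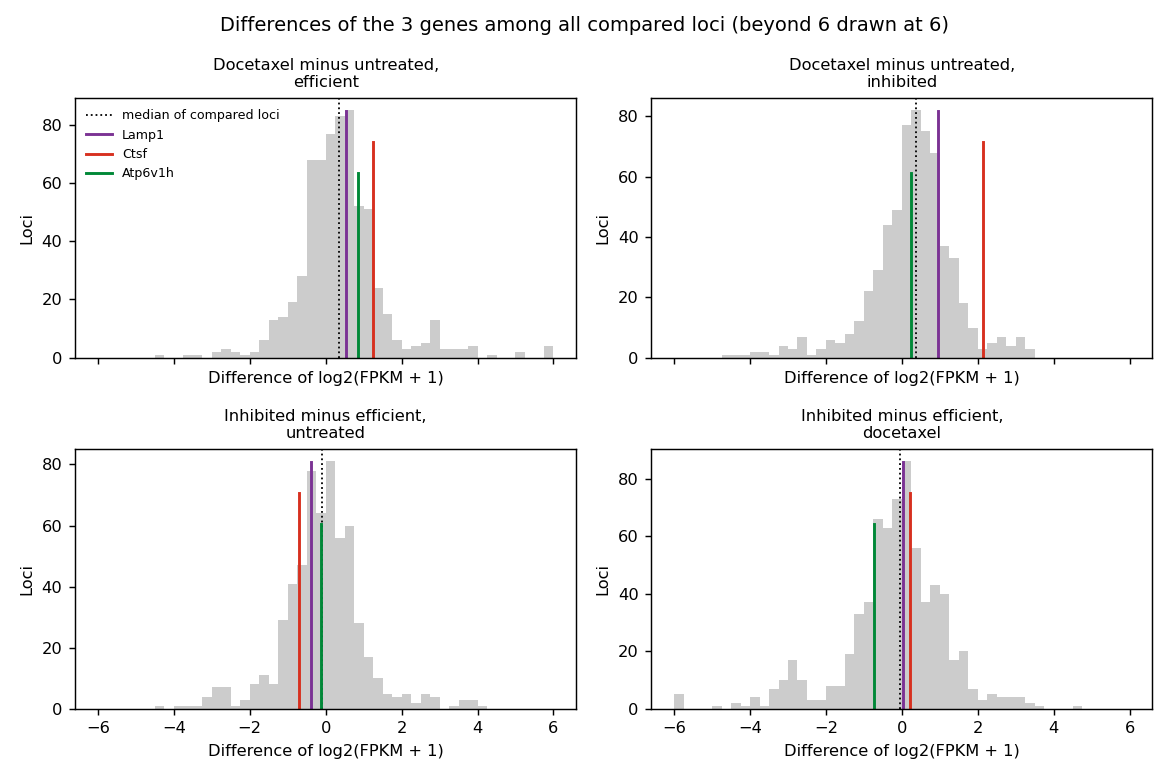
Number of loci (vertical axis) by difference of log2(FPKM + 1) (horizontal axis) in the 4 comparisons, for all loci that reached 5 FPKM in either library; coloured lines mark the 3 genes and the dotted line the median. Ctsf lies at 2.15 in inhibited tumours, in the upper tail, whereas the other values lie within the bulk of loci.

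How far the docetaxel difference itself depended on caspase-3 state was described by subtracting the efficient from the inhibited difference on the log2(FPKM + 1) scale. The result was 0.43 for Lamp1, 0.91 for Ctsf and -0.61 for Atp6v1h. Values past 2 in size were found for 16.6% of 775 loci, and none of the 3 genes was among them. Expressed as a ratio of ratios, Lamp1 was at 1.35 (95% interval 0.91 to 2.00), Ctsf at 2.09 (0.62 to 7.03) and Atp6v1h at 0.65 (0.29 to 1.45). All 3 intervals include 1. That Ctsf passed the rule in inhibited and missed it in efficient tumours therefore does not show that its docetaxel difference depended on caspase-3 state.

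Ratios within a library do not depend on any single scaling factor applied to that library. As a share of Lamp1, Ctsf stood at 5.22% in the untreated efficient library (95% interval 2.62 to 10.4) and 9.26% with docetaxel (6.0 to 14.3). In inhibited tumours the share was 3.86% (1.71 to 8.70) untreated and 10.6% (6.13 to 18.4) with docetaxel. Ctsf was thus a larger share of Lamp1 in both docetaxel libraries, with overlapping intervals. Atp6v1h amounted to 18.3%, 23.1%, 21.9% and 13.3% of Lamp1 in the order efficient untreated, efficient docetaxel, inhibited untreated and inhibited docetaxel. Its lowest share fell in the docetaxel inhibited library and its intervals overlapped throughout.

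Col1a2, a fibroblast gene for type I collagen, was read well in every library, at 369, 515, 371 and 579 FPKM in the same order, and served as a second reference. Against it Lamp1 stood at 35.0%, 36.2%, 26.4% and 32.9%, so that Lamp1 and Col1a2 differed alike between the efficient libraries. In the inhibited libraries Col1a2 was also higher with docetaxel. The intervals of the Lamp1 share overlapped there, at 20.6 to 33.9 untreated and 26.7 to 40.6 with docetaxel. Ctsf was at 1.83% and 3.35% of Col1a2 in the efficient libraries and at 1.02% and 3.49% in the inhibited ones. The intervals of Ctsf overlapped in both pairs, at 0.47 to 2.23 and 2.08 to 5.87 for the inhibited libraries. Atp6v1h was at 6.39%, 8.37%, 5.78% and 4.36% of Col1a2. Against Ppia, a peptidyl-prolyl isomerase gene used by every cell, Atp6v1h held within 7.63% to 9.10% in all 4 libraries, while Ctsf ranged from 1.52% to 6.51%. Lamp1 stood at 41.7%, 39.3%, 39.4% and 61.4% of Ppia in the same order, highest in the docetaxel inhibited library. The level of Ppia exceeded its own deposited upper bound in the docetaxel efficient library (474 FPKM against 396), so no interval is given for that reference.

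The rest of the v-ATPase was measured in part. Of 25 subunit loci 5 were above 0, all of them in all 4 libraries and at 5 FPKM or more in at least 1. In the docetaxel comparison all 5, Atp6v1h among them, had positive differences in efficient and in inhibited tumours as deposited, with medians of 0.84 and 0.84, against 0.34 and 0.37 over all compared loci. Of all compared loci, 65.7% and 68.1% had positive differences. With median scaling 3 of 5 stayed positive in efficient and 4 of 5 in inhibited tumours, and quantile normalization gave the same counts. Without Atp6v1h, all 4 other subunits were positive in both comparisons as deposited, with medians of 0.55 and 0.85, and under both scalings 2 of 4 stayed positive in efficient and 4 of 4 in inhibited tumours. Tcirg1, the membrane subunit a3 that osteoclasts use for acid secretion, was at 76.1 FPKM (60.8 to 92.1) and 84.8 FPKM (70.1 to 99.4) in the efficient libraries. In the inhibited libraries it was at 43.3 FPKM (30.3 to 56.4) untreated and 89.0 FPKM (68.1 to 111) with docetaxel, which passed the rule with a log2 difference of 1.02. Like Lamp1 and Ctsf it was lowest in the untreated inhibited library. That difference of Tcirg1 missed the rule with median scaling (0.61), quantile normalization (0.60) and a pseudocount of 5 (0.96).

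Atp6v0d2, an isoform of the subunit d known from osteoclasts and macrophages, followed Atp6v1h in being highest in the docetaxel efficient library. It was at 13.0 FPKM (6.37 to 19.1) untreated and 29.0 FPKM (19.6 to 38.0) with docetaxel in efficient tumours, which passed the rule at 1.10. With median scaling that value was 0.85, with quantile normalization 0.76 and with a pseudocount of 5 0.92, none of which passed. In inhibited tumours it was at 6.80 FPKM (2.68 to 11.6) and 13.0 FPKM (5.97 to 20.3). Atp6v1f, subunit F of the same ATP-binding sector as Atp6v1h, was at 50.7, 92.3, 41.4 and 76.0 FPKM in the order efficient untreated, efficient docetaxel, inhibited untreated and inhibited docetaxel, and passed no comparison. Atp6v1e2, an isoform of subunit E, was at 19.9, 23.6, 16.7 and 29.8 FPKM. Its value is uncertain because the related Atp6v1e1 was listed at 0, and the labels do not say how reads shared by such copies were assigned. Atp6v1f and Atp6v1e2 lie outside the chromosome-start stretches that hold the other 3 subunits.

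Of the cathepsins and other lysosomal proteases, 4 of 20 loci were above 0 and 2 reached 5 FPKM. Ctsw, a cathepsin known from cytotoxic lymphocytes, lies on chromosome 19 a short way beyond Ctsf. It was at 7.74 FPKM (1.62 to 12.9) and 7.57 FPKM (2.41 to 13.3) in the efficient libraries, and at 4.34 FPKM (0 to 9.08) and 17.4 FPKM (4.85 to 29.1) in the inhibited libraries, without passing the rule as deposited. With quantile normalization, which uses no bounds, it passed as higher in the docetaxel inhibited library, at 1.47 against the untreated inhibited and 1.11 against the docetaxel efficient library. That setting passed 178 of 639 and 212 of 662 loci in these comparisons. Ctsw and Ctsf shared the highest and lowest library. Ctsb, one of the most widespread cathepsins, was listed at only 1.66 to 2.63 FPKM, and its span overlaps another locus and lies outside the stretches. The endogenous inhibitors of cysteine proteases gave no comparison, with 1 of 9 loci above 0.

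Among 30 lysosomal membrane protein loci, 7 were above 0 and 5 reached 5 FPKM. Mcoln1, the calcium channel mucolipin 1, was at 9.96 FPKM (3.98 to 15.9) and 11.9 FPKM (5.94 to 17.1) in efficient tumours, and at 6.21 FPKM (1.12 to 11.2) and 4.98 FPKM (0 to 8.96) in inhibited tumours. Ctns, the cystine exporter cystinosin, had 8.51, 11.3, 7.17 and 11.7 FPKM in the order used above, which is the order of Lamp1 on a smaller scale. Laptm4b was at 17.6, 13.5, 15.8 and 24.7 FPKM, and Cln8, a protein of the endoplasmic reticulum that moves lysosomal enzymes towards the Golgi, at 4.16, 8.66, 8.62 and 5.76 FPKM. None of these 4 genes passed the rule as deposited, and with quantile normalization Cln8 passed as higher in untreated inhibited tumours, at 1.01. That setting uses no bounds and passed 172 of 639 loci there. Lamp1 was at least 5 times as abundant as each of these 4 genes in every library.

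Other parts of the pathway were read in still fewer genes. Of 37 further hydrolases and activators 2 reached 5 FPKM: Psap, the precursor of the saposins, at 20.2, 23.1, 20.8 and 10.1 FPKM, and Ppt2, a thioesterase, at 5.32, 7.17, 11.9 and 1.99 FPKM. Of 19 loci for regulators 1 did, Tfec, a relative of the lysosomal transcription factor gene Tfeb, at 7.58, 8.75, 5.67 and 11.4 FPKM. Of 29 sorting genes 1 did, Ap1b1, a subunit of the AP-1 adaptor, at 30.8, 27.9, 18.4 and 26.9 FPKM. Of 28 autophagy genes 1 did, Rb1cc1, a scaffold of the kinase complex that starts autophagy, at 4.66, 6.78, 5.23 and 4.80 FPKM. As deposited, none of these 5 genes passed the rule in the 4 comparisons, while Ppt2 was past 2 in size in the difference of docetaxel differences, at -2.48. For docetaxel in inhibited tumours Ppt2 passed as lower with median scaling (-2.44) and quantile normalization (-2.29), and Psap with quantile normalization (-1.36). Median scaling passed 31 of 627 loci there, and quantile normalization, which uses no bounds, 178 of 639.

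**Figure D3:**
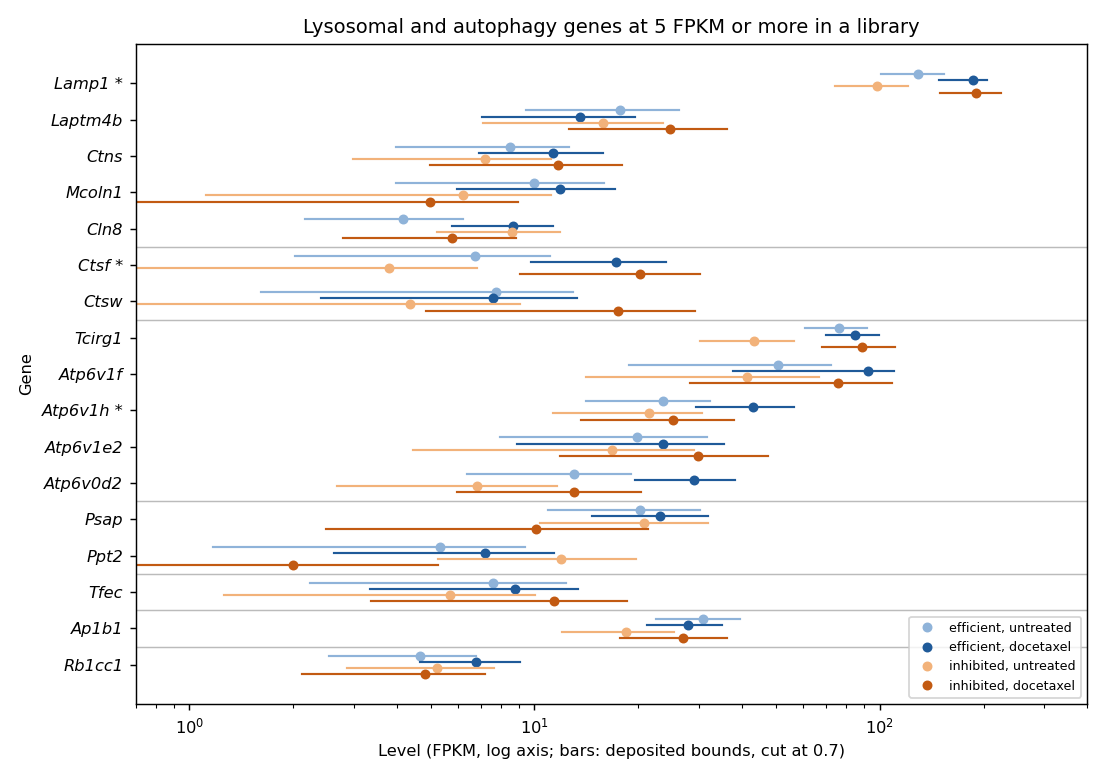
Level in FPKM on a log axis for the 17 genes of the lysosomal and autophagy lists that reached 5 FPKM in any library, grouped by list; points are levels, bars the deposited bounds (cut at 0.7), colours the libraries, and asterisks mark Lamp1, Ctsf and Atp6v1h. As deposited, the untreated inhibited library is the lowest for Lamp1, Ctsf and all 5 v-ATPase subunits; for Atp6v1h median scaling and quantile normalization put the docetaxel inhibited library lower, and quantile normalization also the untreated efficient one.

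Without Lamp1, Ctsf and Atp6v1h, 14 genes of these lists could be compared of 194 loci. In efficient tumours 11 of the 14 had positive docetaxel differences with a median of 0.24, and 1 (Atp6v0d2) passed the rule. In inhibited tumours 9 of the 14 were positive with a median of 0.62, and 1 (Tcirg1) passed. Over all compared loci 65.7% and 68.1% of differences were positive. Directions in efficient tumours depended on scaling: with Lamp1, Ctsf and Atp6v1h included, 14 of 17 were positive as deposited, 9 with median scaling and 8 with quantile normalization, while in inhibited tumours the counts were 12, 11 and 11. In untreated tumours 10 of the 14 were lower in the inhibited library, with a median of -0.26. Under docetaxel 8 of the 14 were, with a median of -0.16. Over all compared loci 47.7% and 47.1% of these differences were positive, with medians of -0.09 and -0.05. As deposited no gene of the 14 passed in either of these comparisons, where 5.86% and 13.3% of all loci did. Under docetaxel Atp6v0d2 passed as lower with median scaling (-1.15) and quantile normalization (-1.02). Quantile normalization, which uses no bounds, also put Ppt2 (-1.29) and Psap (-1.01) past the rule as lower there, and in untreated tumours Ppt2 as higher (1.14). Its calls of Ctsw and Cln8 are given above. That setting passed 212 of 662 loci under docetaxel and 172 of 639 in untreated tumours.

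Markers of cells rich in lysosomes could hardly be read. Of 16 macrophage marker loci 3 were above 0, Mpeg1, Mrc1 and Cd163, none reached 5 FPKM, and these 3 lie outside the chromosome-start stretches and the 11 further stretches of crowded values. Their summed level was 3.76, 3.92, 2.60 and 2.03 FPKM in the order used above. At such low levels, and without bounds for the sum, its order of libraries is not read against Lamp1 or Ctsf. Csf1r, Itgam, Lyz2 and the C1q genes were listed at 0 in every library, which outside the stretches gives no level. Cd68, also listed at 0, lies in a further stretch on chromosome 11 where 12 of 29 loci were above 0 in 3 or 4 libraries. Of 10 carcinoma and epithelial loci 3 were above 0. Vim was at 11.0 to 16.9 FPKM, and Cd44 stayed under 1 FPKM. Cldn4, a claudin of epithelial junctions, was at 5.71 FPKM (1.64 to 9.03) in the docetaxel efficient library, with 0 listed elsewhere. Its differences of 2.75 for docetaxel in efficient tumours and -2.75 for inhibition under docetaxel met the rule against a listed 0. The docetaxel efficient library is also the one where Atp6v1h was highest. Epcam and the keratin genes were listed at 0 in every library. The tumour label could thus not be checked on these tables, and the part of macrophages or tumour cells in the levels of Lamp1, Ctsf and Atp6v1h was not tested.

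The loci most like each gene were sought among 322 named loci at 5 FPKM or more in every library, by the Euclidean distance between log2(FPKM + 1) values centred over the 4 libraries. With only 4 values per locus, a near match is a description of these libraries. Nearest to Lamp1 were Ccm2, which acts in vessel stability (distance 0.12), the splicing factor gene Sf3b2 (0.12) and the transcription factor gene Klf6 (0.18). Sf3b2, for example, was at 27.6, 39.4, 22.9 and 42.4 FPKM in the order used above. Nearest to Atp6v1h were the inflammatory caspase gene Casp4 (0.09), the actin-binding gene Dbnl (0.10) and the cofilin phosphatase gene Ssh3 (0.14). Casp4 was at 24.3, 47.8, 23.6 and 26.7 FPKM, close to Atp6v1h in level as well as in order.

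Among the loci searched Ctsf had no match as close, and Ctsf itself was below 5 FPKM in the untreated inhibited library. Its nearest locus was the stromelysin gene Mmp3 at a distance of 0.39, with 44.3, 86.3, 18.2 and 97.3 FPKM, followed by Arf5 (0.64) and Wibg (0.66), which both lie outside the chromosome-start stretches. With a minimum of 1 FPKM, a setting chosen after the data were seen, 720 loci were searched and the nearest to Lamp1 was Klhl23 (0.09), to Atp6v1h still Casp4, and to Ctsf Mrpl11, a mitochondrial ribosomal protein gene, at 0.28. Mrpl11 is also a near neighbour of Ctsf on chromosome 19. Between the 3 genes themselves the distances were 0.62 for Lamp1 and Atp6v1h, 0.99 for Lamp1 and Ctsf, and 1.40 for Ctsf and Atp6v1h. Each gene had nearer loci among the 322 searched than among these 3. With so many more loci searched, that does not show that the 3 are unlike. Of the 322 loci searched, 66.5% lay in the stretches.

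Because values were crowded by position, the loci beside each gene were read as well. The 3 annotated loci on either side of Lamp1 reached at most 7.93 FPKM, in Cul4a, a scaffold of ubiquitin ligases that lies just before it. Cul4a was at 2.91, 7.93, 3.92 and 7.85 FPKM in the order used above, higher in both docetaxel libraries as Lamp1 was, and passed no comparison. The next locus after Lamp1, Grtp1, was listed at 0 in 3 libraries. Within 20 loci on either side, 19 of 40 were above 0 in 3 or 4 libraries, and the highest of them stood at 48.2 FPKM, far below Lamp1.

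Around Ctsf, the 3 loci on either side differed in their order of libraries. Rbm14, an RNA-binding gene 3 loci before it, was at 40.5 and 26.7 FPKM in the efficient and at 66.1 and 63.1 FPKM in the inhibited libraries, with a higher value in the inhibited docetaxel library that passed the rule at 1.21. Ccs, which carries copper to superoxide dismutase, was at 6.99, 23.9, 13.1 and 6.99 FPKM. Actn3, which begins within 1 kb of the end of Ctsf, was listed at 0 in 3 libraries and at 1.14 FPKM with docetaxel in efficient tumours. Mrpl11, 6 loci after Ctsf and named after its values were seen, was at 6.69 FPKM (2.76 to 10.4) and 13.6 FPKM (8.26 to 18.6) in the efficient libraries, and at 3.34 FPKM (0.78 to 6.21) and 15.6 FPKM (8.29 to 22.8) in the inhibited ones. Its order of libraries was that of Ctsf, and it passed the rule for docetaxel in inhibited tumours at 1.94. Within 20 loci on either side of Ctsf, 27 of 40 were above 0 in 3 or 4 libraries.

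Before Atp6v1h lie Lypla1, an acyl-protein thioesterase gene, and Tcea1, a transcription elongation factor gene. Lypla1 was at 9.82, 16.3, 9.02 and 24.1 FPKM, and Tcea1 at 11.0, 20.6, 28.4 and 31.6 FPKM, of which the higher untreated value in the inhibited library passed the rule at 1.30. Neither followed Atp6v1h, whose highest value was in the docetaxel efficient library. Rb1cc1, 3 loci after Atp6v1h and described above, and Pcmtd1, 6 loci after it and named after its values were seen, were also highest there, with Pcmtd1 at 5.94, 12.5, 4.45 and 7.72 FPKM, and passed no comparison. Rgs20, Oprk1 and Npbwr1, the loci directly beside it, were listed at 0 in all 4 libraries.

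**Figure D4:**
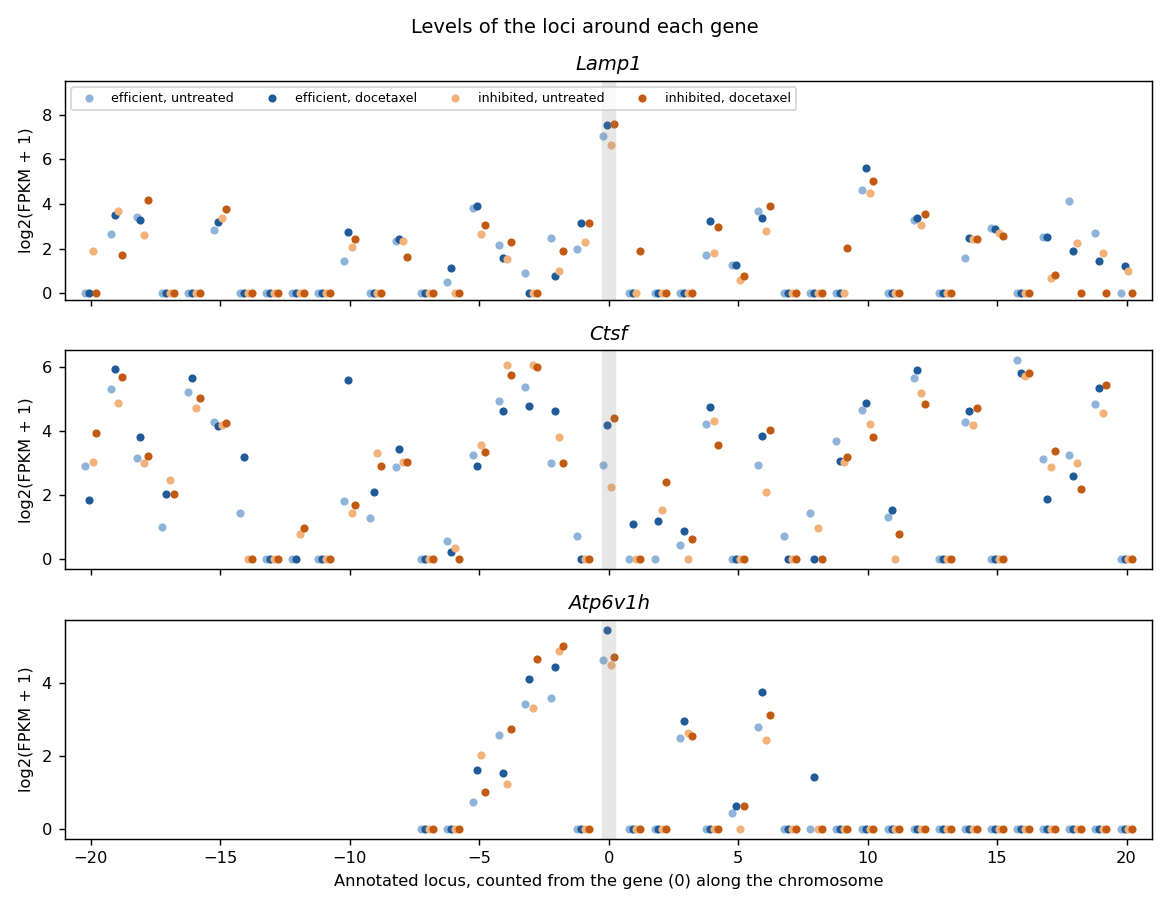
Level as log2(FPKM + 1) (vertical axis) of up to 20 annotated loci on either side of each gene (horizontal axis, loci counted from the gene at 0, shaded), with colours for the 4 libraries. Lamp1 stands above its 40 neighbours, Ctsf lies among many measured loci, and Atp6v1h is followed mostly by loci listed at 0.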

How the data were processed

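RNA of 4 xenograft tumours, 1 library per combination of caspase-3 state and treatment, was sequenced on a MiSeq, per the labels' protocols. TopHat and Cufflinks were used on mouse build mm9, per the submitters' processing notes, with versions not given in the sources used here. The deposited values are FPKM with lower and upper bounds and a status, per the file headers. Total fragments are not in these tables, so depth was gauged from the bounds.

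Start positions were raised by 1. Differences were taken as log2(FPKM + 1), which understates those of low genes. Loci with the status LOWDATA (285 per library) entered no comparison. A ratio's interval combined both relative bounds on the log scale and covers counting error only; where a lower bound was 0 the upper one was used. Chromosome-start stretches came from a 2-state model of loci above 0 in at least 3 libraries (switch probability 0.005, 30 rounds). The call rule was run on simulated counts in which only loci of a higher mean level than Ctsf were changed. That run therefore does not cover the call of Ctsf. The members and lists were chosen with earlier results of these data known. Named genes were the members, list genes at 5 FPKM or more, the 3 most alike loci and the 3 neighbours on each side; a few others are named to describe a list. Other settings were pseudocounts, minimum FPKM, scaling, bounds and fold. Python 3.11.15, numpy 2.4.6, pandas 2.3.3 and matplotlib 3.10.9 were used. No mouse sequence was used.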

Additional observations from a re-analysis of the deposited data

Results flagged for a closer look

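Docetaxel differences of opposite sign in efficient and inhibited tumours were seen in 9 of 22 loci, which were the 3 genes, the list genes and the 3 neighbours on each side that reached 5 FPKM in a library, each from 1 library per group, and the difference between them was not tested. Over all compared loci 65.7% and 68.1% of docetaxel differences were positive in efficient and inhibited tumours. The share of all loci with opposite signs is not given here, so the 9 are not read as many or few. Some signs rest on small values, such as -0.03 for Ctsw in efficient and -0.10 for Rb1cc1 in inhibited tumours. The inhibited minus the efficient difference of log2(FPKM + 1) was -2.48 for Ppt2, -2.46 for Ccs, -1.41 for Cln8, -1.16 for Psap, -0.56 for Rb1cc1 and -0.50 for Mcoln1. It was 1.81 for Ctsw, 0.97 for Laptm4b and 0.66 for Ap1b1. Lamp1, Ctsf and Atp6v1h were not among them as deposited.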

How the results depend on the processing

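Of 127 values of the 3 genes under other settings, 121 kept their direction and their side of the rule, 5 turned direction and 1 (Ctsf in efficient tumours, 1.24 with no interval criterion) came to pass it. Most of these values could not have turned: minimum, bounds and fold settings leave a log2 difference as it is. A pseudocount cannot turn a difference between libraries either. For those differences only median scaling and quantile normalization put the direction at stake. Quantile normalization turned Lamp1 in efficient tumours to -0.14, Atp6v1h in inhibited tumours to -0.17 and Atp6v1h in untreated tumours to 0.0511. Median scaling turned Atp6v1h in inhibited tumours to -0.17 and Lamp1 under docetaxel to -0.0234. Ctsf stayed past the rule in inhibited tumours in all 9 settings, between 1.52 and 2.39.

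Counts of loci past the rule, in the order docetaxel in efficient tumours, docetaxel in inhibited tumours, inhibition untreated and inhibition under docetaxel, were 60, 35, 35 and 93. A minimum of 20 FPKM gave 25, 13, 12 and 40, quantile normalization without bounds 156, 178, 172 and 212, and no interval criterion 187, 184, 142 and 240. A minimum of 1 FPKM or none gave 91 for docetaxel in efficient tumours, and 53 and 142 for inhibition untreated and under docetaxel. For the difference of docetaxel differences the count was 129, and 21 with a pseudocount of 5, 316 with a minimum of 1 FPKM or none, and 27 with 20 FPKM. The number of genes tested differs between the minima by construction. No paired analysis was possible because each group was 1 library. Ctsf rests on few fragments, and no setting covers the spread between animals.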
